A study of Mus musculus with 29 samples.

Results

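The genes described here encode the proteins of the cytosolic ribosome, measured by RNA sequencing in mouse megakaryocyte-erythrocyte progenitors (MEPs), bone marrow cells that form platelets and red cells. Members were taken by name after gene identifiers had been matched to mouse symbols: Rplp0, Rplp1, Rplp2, Rpsa, and every symbol made of Rpl or Rps, digits and at most one letter a, l or x. Kinases of the Rps6k family, mitochondrial ribosomal proteins and annotated pseudogenes were left out. This gave 81 of the 18834 genes, 31 of the small and 50 of the large subunit, and 79 of them passed the filter on low counts and were tested. The exceptions were Rpl10l and Rpl3l, and 1 further name match, Rps4l, is annotated as a transcribed pseudogene and is treated apart.

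All mice carried SclCre (also spelled ScleCre), a Cre recombinase under the Scl promoter, and differed in Ezh2, the methyltransferase of Polycomb repressive complex 2, and in JAK2V617F, the activated kinase of myeloproliferative neoplasms. The control group was Ezh2 +/+ without V617F (5 libraries, 2 of them male), and the other groups without V617F were Ezh2 +/- (4 libraries, 2 male) and Ezh2 -/- (4 libraries, 1 male). With V617F there were 4 Ezh2 +/+ libraries (1 male, called V617F below), 6 Ezh2 +/- libraries and 6 Ezh2 -/- libraries, the latter 12 all from females. RNA of each library came from 230000 sorted cells. The labels give neither ages, sorting gates nor the deleted part of Ezh2. They call the libraries of a group only replicates. Groups with male and female libraries cannot come from a single mouse, but the number of mice is not given. Part of the spread behind each p-value may thus be technical.

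Each ribosome is built in the nucleolus and cytoplasm from ribosomal RNA and one copy of most of these proteins, so the genes are known for balanced, high expression in growing cells. Many of their mRNAs start with a run of pyrimidines, the 5' terminal oligopyrimidine (TOP) tract, through which mTOR signalling controls their translation. Red cell precursors are known to be sensitive to a shortage of single ribosomal proteins: inherited loss of one gene copy of several members causes Diamond-Blackfan anemia, and loss of RPS14 is part of the 5q- syndrome.

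Promoter sequence near the start site is shown first for members that the results below turn on, since a pyrimidine-rich start is what the family is known for. Of the 81 members, 61 had an entry in a RefSeq promoter table of build GRCm38.p6, with 73 promoters among them. Each line gives 30 bases, 5' to 3' on the gene's strand, and capitals mark the longest run of C and T that touches the 50 bases on either side of the annotated start, so that a run may begin outside them, as in Rpsa.
Rpl41 (chr10:128549119-128549148, minus strand): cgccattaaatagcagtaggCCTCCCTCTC
Rpl27 (chr11:101442193-101442222, plus strand): gtcatcctcgCTCCTCCCTCCacacgccgg
Rpl37a (chr1:72711274-72711303, plus strand): cgcattgcgTCCCTTCCTCTTCggacttgg
Rpl7a (chr2:26910788-26910817, plus strand): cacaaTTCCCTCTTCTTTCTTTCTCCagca
Rpsa (chr9:120127702-120127731, plus strand): gagcggaagTTCTCCCTTTTTgcttagcct
Rpl39 (chrX:37085173-37085202, minus strand): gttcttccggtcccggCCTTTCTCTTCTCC
Rps21 (chr2:180257399-180257428, plus strand): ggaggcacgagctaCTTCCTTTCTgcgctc
Rps25 (chr9:44407684-44407713, plus strand): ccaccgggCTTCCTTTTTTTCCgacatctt
Rps27 (chr3:90213632-90213661, minus strand): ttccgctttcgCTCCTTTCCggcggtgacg
Rps27l (chr9:66946053-66946082, plus strand): ccccgcctccaCTCCTCTCCactcctcccc
The run was 21 bases long in Rpl7a, and it was 9 bases long in both Rps27 and its paralog Rps27l. Of the runs shown, only those of Rpl7a (positions -14 to 7) and Rps27 (-2 to 7) spanned the annotated start. Those of Rpl41, Rpl39, Rps21 and Rpl37a began 41, 37, 35 and 24 bases into the transcript. Those of Rpl27, Rpsa, Rps25 and Rps27l ended before the start, at -32, -44, -9 and -14. The capitals and the shares below thus mark runs near the start, not TOP tracts. In Rpl41 and Rpl39 it reached the end of the tabulated sequence and may go on beyond it. A run of at least 8 bases was present in 80.8% of the members' promoters and in 36.5% of the 32851 promoters of all genes. Searched on both strands in the window from 250 bases before to 50 after the start, TTCCGG, the core of sites of ETS factors, was in 46.6% of members' promoters and 14.9% of all. CTTTCC, which can overlap TTCCGG in the letters TTCC, was in 49.3% against 26.6%. TCTCGCGA was in 15.1% against 0.995%, AAGATGGC, of YY1 type, in 9.59% against 2.75%, and the E box CACGTG in 11% against 7.15%. These matches describe letters in a window and were not tested against the changes in expression.

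Libraries held 31583023 to 59448945 counts. Ezh2 checked the labels: it ranged from 269.2 to 318.8 CPM in controls (CPM is the usual depth-scaled count, here with scaling by the trimmed mean of M values, TMM), from 188.1 to 197 in Ezh2 +/-, and from 67.9 to 79.5 in Ezh2 -/-. With V617F it ranged from 244.4 to 312.7 in Ezh2 +/+, 147.9 to 204.9 in Ezh2 +/- and 51.2 to 59.5 in Ezh2 -/-. Markers of the erythroid lineage were abundant in every group and summed to 6960 to 9193 CPM in controls and 5435 to 6926 CPM in V617F Ezh2 -/-. Changes below are log2 fold changes ± SE from edgeR's quasi-likelihood test over all 13928 tested genes, called at a Benjamini-Hochberg adjusted p under 0.05. In bulk RNA, fewer cells of a type and less RNA per cell cannot be told apart.

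Ribosomal protein mRNAs were abundant and took a narrow share of every library. The 81 members held 5.99 to 7.48% of all counts. Summed over members, the controls had 60285, 63869, 67849, 71463 and 71223 CPM in replicates 1 to 5, a mean of 66938 ± 4831 (SD, n = 5). The means of the other groups were 106.3% of the control level in Ezh2 +/-, 101.9% in Ezh2 -/-, 103.1% in V617F, 102.8% in V617F Ezh2 +/- and 99.47% in V617F Ezh2 -/-. All groups overlapped with the controls in this sum, and the lowest control values came from the 2 male libraries. Over all groups the members' share of counts was 6.38% ± 0.351 (SD, n = 6) in male and 6.94% ± 0.280 (SD, n = 23) in female libraries. Sex was a term in the fit, but no male library was in the V617F Ezh2 +/- and Ezh2 -/- groups.

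**Figure D1:**
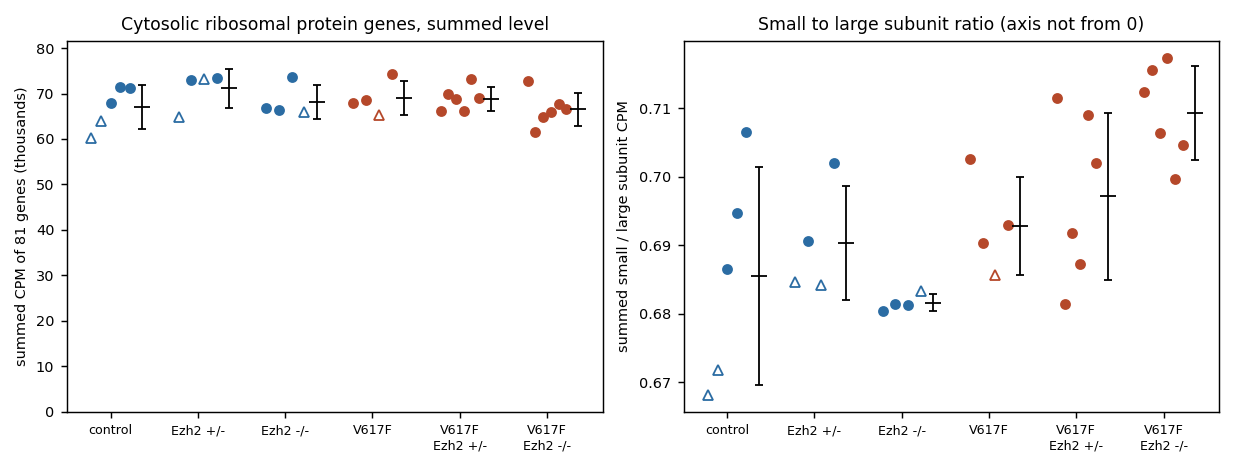
Summed CPM of the 81 ribosomal protein genes in each of the 29 libraries, by group, with mean ± SD as black bars. Blue marks libraries without and red with V617F, open triangles are male and filled circles female. Controls sit between 60285 and 71463 CPM and the other groups overlap with that range.

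Members varied less between libraries of a group than other genes did. The median SD of log2 CPM within groups was 0.095 over the 77 members above 100 CPM, against 0.121 over 583 other genes of the same abundance and 0.171 over all tested genes. Rpl3, a core protein of the peptidyl transferase region, was the steadiest member (0.059). Rps27l, a paralog of Rps27 known as a p53 target, was the least steady of the 77 (0.176), and the scarce Rpl39l had the widest spread of all tested members (1.21). The mRNA ratio of small to large subunit members lay between 0.668 and 0.706 in controls, between 0.680 and 0.683 in Ezh2 -/-, and between 0.700 and 0.717 in V617F Ezh2 -/-. The latter 2 ranges did not overlap. The range of V617F Ezh2 -/- did overlap with those of controls, Ezh2 +/- (0.684 to 0.702), V617F (0.686 to 0.703) and V617F Ezh2 +/- (0.681 to 0.711). The ratio was looked at as a description and has no test. It was also lower in male (0.680 ± 0.0076, SD, n = 6) than in female libraries (0.698 ± 0.0117, SD, n = 23).

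Levels per length, in CPM per kilobase of gene model (RPKM), differed widely between members although each ribosome holds a single copy of most of these proteins. In controls, Rplp1, an acidic protein of the P stalk that recruits elongation factors, was highest at 4290 ± 443 RPKM (SD, n = 5). It was followed by Rps12 at 3206 ± 319, Rpl4 at 2556 ± 64.5, Rpl12 at 2228 ± 172 and Rpl8 at 2216 ± 66.2 RPKM. Rplp1 lay above Rps12 by more than their SDs and Rps12 above Rpl4, whereas Rpl12 and Rpl8 did not differ beyond their spread. The lowest of the abundant members were Rps27l at 301 ± 39.1, Rpl27 at 299.7 ± 28.9, Rpl22 at 206 ± 25, Rpl15 at 195 ± 14.6 and Rps15a at 151 ± 20.1 RPKM. Long gene models lower such values: the length used for Rps15a was 5134 bases and for Rpl22 2497 bases, against 468 for Rplp1.

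**Figure D2:**
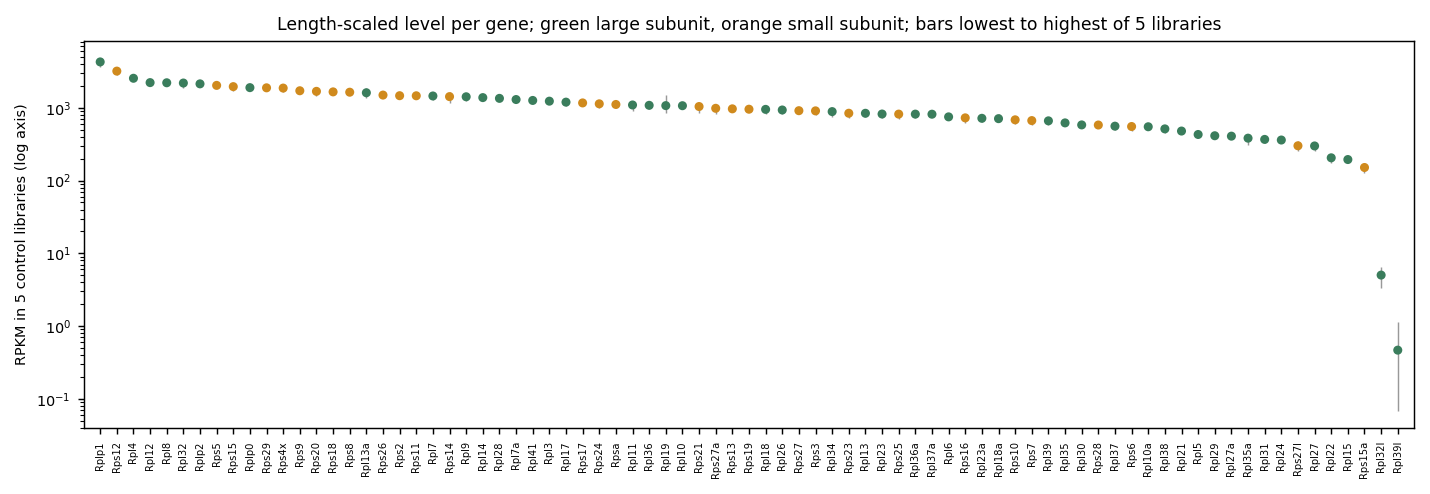
Level per length (RPKM, log axis) of the 79 tested members in the control libraries, ranked, with bars from the lowest to the highest of 5 libraries and the subunits in separate colours. Most members fall between 151 and 4290 RPKM, and Rpl32l and Rpl39l lie far below.

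Paralogs that are known from testis or muscle were nearly silent. Rpl10l, the autosomal copy of Rpl10 used in male germ cells, had a count in 1 of 5 controls and in 1 of 6 V617F Ezh2 +/- libraries and was at 0 in the other libraries. Rpl3l, the copy of Rpl3 of heart and skeletal muscle, lay at 0.085 ± 0.075 RPKM in controls (SD, n = 5). Rpl39l, a copy of the tunnel protein Rpl39 known from testis, lay at 0.466 ± 0.400 RPKM in controls, and Rpl32l at 5.02 ± 1.43 RPKM (both SD, n = 5).

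Some members cannot be separated from near-identical gene copies in these counts. The count of Gm15772 was 99.82 to 99.95% of that of Rpl26 in the 29 libraries, and Rps27rt was at 99.45 to 99.74% of Rps27. Rpl34-ps1 was at 97.21 to 98.57% of Rpl34, and Gm12191 at 97.88 to 98.68% of Rpl30. These 4 members were those for which another gene with a mean count over 1000 kept a count ratio whose highest value was within 5% of its lowest. Reads of each pair cannot be told apart here. Other members may share fewer reads with copies, and their values are uncertain to that extent.

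With loss of Ezh2 and no V617F, 1 of 79 tested members was called, Rps27l, which rose. This compares with 23.7% of all tested genes (11.5% higher, 12.2% lower) and 14.1% of the 583 genes of like abundance. The median change of the 79 was -0.0004 on the log2 scale, that of all genes -0.011, and 97.5% of members against 58.8% of all genes lay within 0.25 of 0. Rps27l had 117, 136.6, 150.4, 164.2 and 131.1 CPM in control replicates 1 to 5, and 165.7, 143.8, 212.6 and 187.4 CPM in Ezh2 -/- replicates 1 to 4. The ranges overlapped, since Ezh2 -/- replicate 2 lay below control replicates 3 and 4. Rps27l rose by 0.34 ± 0.11 (edgeR adjusted p = 0.0313). The call was lost without control replicate 1, 2 or 5 or Ezh2 -/- replicate 3 or 4 (adjusted p at most 0.126, without Ezh2 -/- replicate 3), with females only (0.316), with the compared groups alone (0.0577), and with 3 libraries removed (Ezh2 +/- replicates 2 and 5, control replicate 5; 0.0679). Rpl37a, a zinc finger protein of the large subunit, at -0.13 ± 0.05 (adjusted p = 0.0734) and Rpl7a at 0.15 ± 0.06 (0.0752) came next. Every Ezh2 -/- library had more Rpl7a than every control, 1193 to 1337 against 1055 to 1170.5 CPM. This was so for 1 of 79 members and, among all genes, for 11.5%. Rps19 and Rps14, the classic genes of Diamond-Blackfan anemia and the 5q- syndrome, were at -0.10 ± 0.05 (0.177) and 0.04 ± 0.07 (0.716).

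In Ezh2 +/- mice without V617F no member was called by edgeR or DESeq2, as for nearly all genes (0.0144% called by edgeR), while the estimates of the members were shifted to one side. The median change was 0.099 on the log2 scale against -0.0005 over all genes, and 78 of 79 members lay above 0. Members move together within a library: of the 77 abundant ones, 1 lay above its own mean in control replicate 1 and 77 in Ezh2 +/- replicate 2. Such counts are therefore not of independent observations. The members' median deviation per library was -0.036 ± 0.115 in controls (SD, n = 5) and 0.058 ± 0.094 in Ezh2 +/- (SD, n = 4), with overlapping ranges. At an unadjusted p under 0.05 there were 24 members, all higher, against 2.76% of all genes. The lowest unadjusted p values belonged to Rps21 (0.21 ± 0.06), Rps20 (0.17 ± 0.06) and Rpl11 (0.19 ± 0.06), each with an adjusted p of 1. Rps21 had 414.1, 472.8, 481.6 and 486.1 CPM in Ezh2 +/- replicates 1, 2, 4 and 5, against 328.5, 357.9, 433.5, 463.4 and 458.5 CPM in controls. Its 2 lowest controls and its lowest Ezh2 +/- value are from male libraries.

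With V617F alone a few small subunit genes changed. Of 79 members 4 were called in V617F against control, 3 higher and 1 lower and all of the small subunit, against 23.6% of all genes (9.73% higher, 13.9% lower). Rps21, a small subunit protein, had 476.4, 467.5, 446.8 and 511.9 CPM in V617F and rose by 0.20 ± 0.06 over the controls given above (edgeR adjusted p = 0.0257). Rps25, which binds the small subunit head and is needed for some internal ribosome entry sites, had 474.5, 497.4, 599, 615.8 and 622.8 CPM in controls and 630.4, 657.8, 587.7 and 697.2 CPM in V617F. It rose by 0.17 ± 0.06 (0.0337), with 3 of the 4 V617F libraries above every control. Rps27l, with 145.8, 176.5, 182.8 and 202.3 CPM in V617F, rose by 0.34 ± 0.11 (0.0338). The ranges of all 3 genes overlapped with the controls. Each of the 3 calls was lost without control replicate 1 or 2 or V617F replicate 3 or 4, and Rps27l also without control replicate 5 (adjusted p at most 0.0973 for the latter gene). In females only no member was called, with adjusted p 0.29 for Rps21, 0.225 for Rps25 and 0.249 for Rps27l. DESeq2 called 9 members, 8 of them higher.

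Rpsa was the only member called lower with V617F in each of the 3 Ezh2 genotypes. It encodes a small subunit protein that doubles as the laminin receptor, and germline mutation of its human counterpart is known to cause isolated lack of a spleen. Rpsa had 1840, 2020, 2047, 2194 and 2273 CPM in controls and 1863, 1864, 1805 and 1986 CPM in V617F. In Ezh2 +/- it had 2022, 2202, 2188 and 2349.9 CPM, and with V617F 1808 to 2119 CPM (median 1918). In Ezh2 -/- it had 2048, 2082, 2197 and 1972 CPM, and with V617F 1724 to 2123 CPM (median 1841). The 3 comparisons share no library, and in each of them the ranges overlapped. Rpsa fell by 0.16 ± 0.06 in Ezh2 +/+ (edgeR adjusted p = 0.0392), by 0.24 ± 0.06 in Ezh2 +/- (0.00706) and by 0.17 ± 0.05 in Ezh2 -/- (0.0157). The call in Ezh2 +/- was lost without Ezh2 +/- replicate 5 (0.0536). That in Ezh2 -/- was lost without Ezh2 -/- replicate 3, or without replicate 2, 3 or 4 of V617F Ezh2 +/- or of V617F Ezh2 -/- (at most 0.131). The call in Ezh2 +/+ held in only 14 of the 29 fits that leave out a library. It was lost without any V617F replicate, control replicate 2, 4 or 5, Ezh2 +/- replicate 4, and the same 7 libraries as in Ezh2 -/- (at most 0.164). The estimates in those fits ranged from -0.18 to -0.12, from -0.27 to -0.20 and from -0.21 to -0.13. In females only, and with the compared groups alone, none of the 3 was called (adjusted p from 0.0835 to 0.118 and from 0.0966 to 0.163). The call in Ezh2 +/+ was also lost with RLE scaling (0.059), without the filter (0.0936), without the sex term (0.0993) and with the replicate number as a block (0.0834). With 3 libraries removed (Ezh2 +/- replicates 2 and 5, control replicate 5), the calls in Ezh2 +/+ (0.222) and Ezh2 +/- (0.348) were lost. The Ezh2 +/- libraries left in that setting are all male, against females with V617F. That in Ezh2 -/- was lost with library totals (0.177), without the filter (0.0507) and without the sex term (0.0564). With loss of Ezh2, Rpsa was at -0.02 ± 0.06 in Ezh2 -/- against control and -0.03 ± 0.05 in V617F Ezh2 -/- against V617F.

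**Figure D3:**
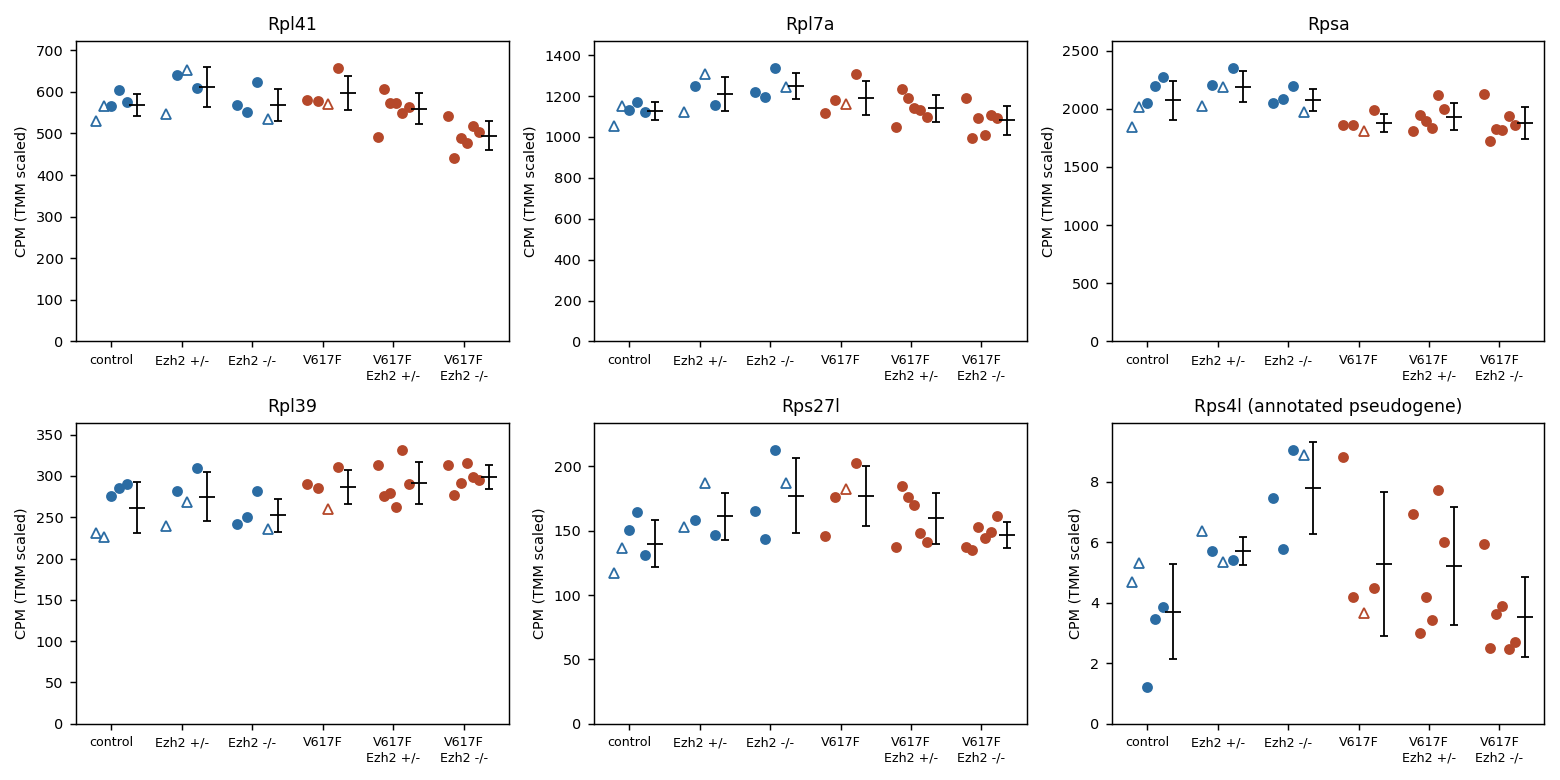
CPM of Rpl41, Rpl7a, Rpsa, Rpl39, Rps27l and the pseudogene Rps4l in each of the 29 libraries, by group, with mean ± SD as black bars. Blue marks libraries without and red with V617F, open triangles are male and filled circles female. Rpl41 lies between 441.3 and 541 CPM in V617F Ezh2 -/-, below every V617F library.

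In Ezh2 +/- mice V617F went with 6 lower members and none higher, against 9.87% of all genes called (6.51% lower). Besides Rpsa these were Rpl10a, Rpl37a, Rpl13a, Rpl38 and Rps26. Rpl10a, a protein of the L1 stalk that guides deacylated transfer RNA out, had 455, 486.6, 496.1 and 484.3 CPM without V617F and 424.3 to 445.8 CPM (median 432.6) with it, with no overlap, as for 5.36% of all genes. It fell by 0.19 ± 0.05 (edgeR adjusted p = 0.00874) and stayed under the threshold in all 29 fits that leave out a library, though not in females only (0.185). Rpl13a, known for a role in silencing inflammatory transcripts, fell by 0.21 ± 0.06 (0.0326), and Rpl38, known for patterning of the skeleton, by 0.17 ± 0.05 (0.0346). Rpl37a fell by 0.18 ± 0.05 (0.0282) and Rps26 by 0.16 ± 0.05 (0.0409). Of 79 members 77 lay below 0, with a median of -0.099 against 0.002 over all genes. The members' median deviation per library was 0.058 ± 0.094 without V617F (SD, n = 4) and 0.019 ± 0.047 with it (SD, n = 6). The count was 0 in females only, when the fit held the 2 groups alone, and without the 3 libraries control replicate 5 and Ezh2 +/- replicates 2 and 5. The latter are the only female Ezh2 +/- libraries, so without them males are compared with females and V617F cannot be told from sex within these groups. It was 1 without Ezh2 +/- replicate 5, and 2 without control replicate 5, Ezh2 +/- replicate 4, V617F replicate 2 or 4, V617F Ezh2 +/- replicate 2, 3 or 4, or V617F Ezh2 -/- replicate 3 or 4. It was 3 without Ezh2 +/- replicate 2, Ezh2 -/- replicate 3, V617F Ezh2 +/- replicate 1 or V617F Ezh2 -/- replicate 2. In V617F Ezh2 +/- against V617F no member was called by edgeR or DESeq2 (0.00718% of all genes called by edgeR), and 1 member was under an unadjusted p of 0.05 against 6.33% of all genes. That member was the scarce Rpl39l at -2.61 ± 0.99 (adjusted p = 0.594), with 0 to 0.296 CPM in V617F Ezh2 +/- (1 of 6 libraries at 0) and 0.370 to 0.752 CPM in V617F, a lack of overlap seen for 0.323% of all genes.

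In mice with V617F, loss of Ezh2 went with lower mRNA for a share of the members close to that of all genes. Of 79 members 12 were called in V617F Ezh2 -/- against V617F, all lower, 11 of the 48 large and 1 of the 31 small subunit members. This is 15.2% of members, against 26.6% of all genes (13.6% lower, 13% higher). Of the 583 other genes of like abundance 29.3% were called, 162 lower and 9 higher. The median of the members was -0.088 on the log2 scale, against -0.003 over all genes and -0.14 over the 583 of like abundance, and 72 of 79 members lay below 0. The members' median deviation per library was 0.028 ± 0.082 in V617F (SD, n = 4) and -0.026 ± 0.072 in V617F Ezh2 -/- (SD, n = 6). In this comparison the median was -0.095 over large and -0.077 over small subunit members. The difference between subunits was not tested.

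Rpl41, which encodes the smallest protein of the ribosome, a short basic helix that bridges the subunits, stood first. Rpl41 had 581.4, 576.9, 569.7 and 657.2 CPM in V617F, and 441.3 to 541 CPM (median 496) in V617F Ezh2 -/-. Every V617F Ezh2 -/- library lay below every V617F library, as for 8.11% of all genes. Rpl41 fell by 0.29 ± 0.06 (edgeR adjusted p = 0.00132), and it was called in all 29 fits that leave out a library (at most 0.0137, without V617F replicate 4) and in the 9 other settings tried. In controls it had 529.7, 566.8, 565.3, 605.4 and 575.4 CPM and in Ezh2 -/- 567.9, 551, 623.3 and 535.3 CPM, which overlap. Rpl27, a large subunit protein mutated in rare Diamond-Blackfan anemia, had 228.7, 243.4, 236.2 and 256.1 CPM in V617F and 194.1 to 227.6 CPM (median 211) in V617F Ezh2 -/-, without overlap. Rpl27 fell by 0.21 ± 0.06 (0.0102), a call lost only without V617F replicate 4 (0.0611) among the 29 such fits, and it was called in all 9 other settings. Rpl37a had 487.8, 490.7, 449.5 and 494.6 CPM in V617F and 401.2 to 485.1 CPM (median 419.1) in V617F Ezh2 -/-. The highest of these, replicate 1, overlapped with the V617F range. Rpl37a fell by 0.20 ± 0.05 (0.00499), but not past the threshold when library totals replaced TMM (0.0789) or with the compared groups only (0.0599).

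The other 9 called members fell by less. Rpl35 (-0.18), Rpl38 (-0.15), Rpl30 (-0.14), Rpl24 (-0.16), Rpl36a (-0.16), Rpl37 (-0.13) and Rpl26 (-0.14) belong to the large subunit, as does Rplp0, the anchor of the P stalk, at -0.16. Rps18 at -0.12 was the only one of the small subunit. Their edgeR adjusted p values ran from 0.0133 for Rpl35 to 0.0476 for Rps18. The values of Rpl26 and Rpl30 are shared with the copies named above. Each of the 9 calls was lost in at least 2 of the 29 fits that leave out a library, Rps18 in 22. The number of calls was 23 without V617F Ezh2 -/- replicate 1, in which 75 of the 77 abundant members lay above their own mean over all 29 libraries. It was 2 without V617F replicate 4, 3 without V617F Ezh2 -/- replicate 2, 4 without its replicate 3 or 4 or V617F replicate 2, and 6 without V617F replicate 3. It was 7 without control replicate 5, Ezh2 -/- replicate 3 or V617F Ezh2 +/- replicate 2, 3 or 4. With library totals it was 2, with the compared groups only 2, and 4 in females only. Rpl5 and Rpl11, which form the 5S particle that can bind Mdm2, were at -0.07 ± 0.04 (0.214) and -0.13 ± 0.06 (0.0813), Rps19 at -0.03 ± 0.05 (0.703) and Rps14 at -0.10 ± 0.07 (0.289).

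**Figure D4:**
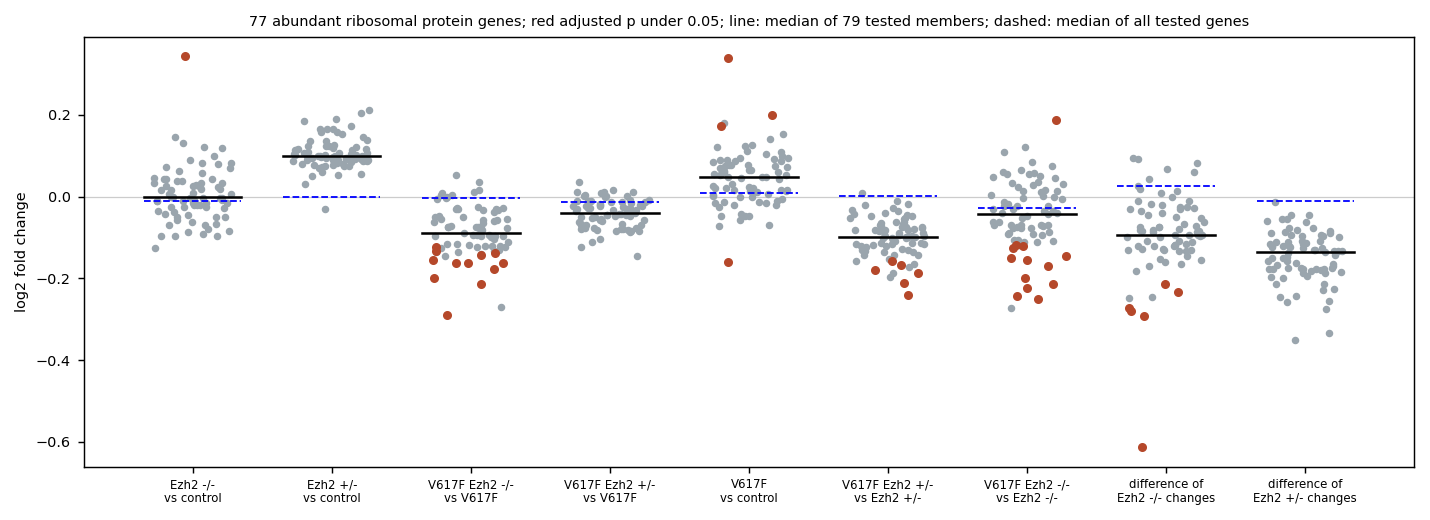
Log2 fold change of the 77 abundant members in each comparison, with called members in red. The black line is the median of the 79 tested members and the blue dashed line that of all tested genes. In V617F Ezh2 -/- against V617F the members' median is -0.088 and the called members all lie below 0.

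V617F against its absence in Ezh2 -/- mice, which uses the same V617F Ezh2 -/- libraries, gave 13 called members, 12 lower and 1 higher. This is 16.5% of members, against 41.6% of all genes (22.5% lower, 19.1% higher) and 52.3% of the 583 genes of like abundance (284 lower, 21 higher). Of the 13, 11 belong to the large subunit. The members' median was -0.043, that of all genes -0.029 and that of the 583 genes -0.18. Rpl7a, a protein of the large subunit, had 1222, 1193, 1337 and 1246 CPM in Ezh2 -/- and 994 to 1188 CPM (median 1095) with V617F, without overlap, as for 18.8% of all genes. Rpl7a fell by 0.21 ± 0.06 (edgeR adjusted p = 0.00669). Rpl8, at the peptidyl transferase centre, had 1941.5, 1918, 2087 and 1895 CPM in Ezh2 -/- and 1520.3 to 1892 CPM (median 1710.5) with V617F, again without overlap. Rpl8 fell by 0.20 ± 0.06 (0.0103), and Rpl41 by 0.22 ± 0.06 (0.00717). These 3 calls were lost without Ezh2 -/- replicate 3 (0.0571, 0.0789 and 0.0654) but in none of the other 28 such fits. Rpl39, which lines the exit tunnel, went the other way: it had 241.4, 250, 281.4 and 235.9 CPM in Ezh2 -/- and 276.6 to 316.3 CPM (median 296.7) with V617F. Rpl39 rose by 0.19 ± 0.06 (0.0183), a call lost without Ezh2 -/- replicate 1 or 2 (at most 0.0942), with 5 of 6 libraries with V617F above all Ezh2 -/- libraries.

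Also lower with V617F in Ezh2 -/- mice were Rplp1 (-0.24 ± 0.08, edgeR adjusted p = 0.0148), Rps2 (-0.25 ± 0.08, 0.0202) and Rpl10 (-0.16 ± 0.05, 0.0233), the latter a protein of the P site loop that is mutated in some T cell leukemias. Rpl3 (-0.12), Rpl29 (-0.14), Rpl4 (-0.13), Rpl27 (-0.15) and Rpl14 (-0.12) had adjusted p values between 0.0232 and 0.0492. The direction of the members as a set depended on scaling: with library totals instead of TMM 15 were called, 10 higher and 5 lower, and their median was 0.044 beside 0.059 over all genes. The median also lay just above 0 in females only (0.0012), with the compared groups alone (0.0036), without Ezh2 -/- replicate 3 (0.013) and by less without replicate 2, 3 or 4 of V617F Ezh2 +/-. Rpl7a, Rpl8 and Rpl41 were called lower and Rpl39 higher under both scalings. The count was 1 without Ezh2 -/- replicate 3, whose members were high, and 22 without V617F Ezh2 -/- replicate 1. It was 4 without V617F Ezh2 -/- replicate 2, 5 without its replicate 3 or 4 or V617F Ezh2 +/- replicate 3, 6 without V617F Ezh2 +/- replicate 4 and 7 without its replicate 2.

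The difference between these effects was tested as an interaction. Of 79 members 6 were called, all with a lower change on Ezh2 loss in V617F than without it, against 19.1% of all genes (10.6% lower) and 31.6% of the 583 genes of like abundance (164 lower, 20 higher). The median was -0.093 over members and -0.21 over the 583 genes. The called members were Rps27l (-0.61 ± 0.16, edgeR adjusted p = 0.0195), Rpl7a (-0.29 ± 0.08, 0.0245), Rpl27 (-0.27 ± 0.08, 0.0318), Rpl41 (-0.28 ± 0.09, 0.0323), Rpl11 (-0.23 ± 0.08, 0.0456) and Rpl18 (-0.21 ± 0.08, 0.0483). Rps27l changed by 0.34 with Ezh2 loss without V617F, while its mean went from 176.8 CPM in V617F to 146.6 CPM in V617F Ezh2 -/- (-0.27 ± 0.11, adjusted p = 0.0745), where its libraries ranged from 134.9 to 161.8 CPM. None of the 6 was called in females only. The count was 0 without control replicate 1 or Ezh2 -/- replicate 3, 1 without V617F replicate 4, and 2 without control replicate 5, V617F replicate 3, V617F Ezh2 +/- replicate 3 or 4 or V617F Ezh2 -/- replicate 2. With the replicate number as a block it was 3. For Ezh2 +/- the same interaction called no member with edgeR or DESeq2 and 0% of all genes. There 33 members had an unadjusted p under 0.05, all below 0, against 6.73% of all genes, and the lowest belonged to Rps21 (-0.33, adjusted p = 0.481). Members move together within a library, so the 33 are not independent observations.

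Ratios of a paralog to its partner within a library do not depend on scaling between libraries. Of 20 exact two-sided permutation tests over 5 pairs and 4 comparisons, 5 had an adjusted p under 0.05. The log2 ratio of Rps27l to Rps27 was -1.92 ± 0.17 in controls (SD, n = 5) and -1.52 ± 0.20 in Ezh2 -/- (SD, n = 4), without overlap (exact p = 0.00794, the smallest this design allows, adjusted 0.0381). It was -1.93 ± 0.13 in V617F Ezh2 -/- (SD, n = 6), lower than in Ezh2 -/- (exact adjusted p = 0.0381). Rpl22l1, a paralog that is known to be held down by Rpl22, had a log2 ratio to Rpl22 that was higher by 0.22 in Ezh2 -/- than in control, without overlap (exact adjusted p = 0.0381). Rpl36al to Rpl36a was lower by 0.29 in V617F Ezh2 -/- than in Ezh2 -/- (exact adjusted p = 0.0381). Rps4l to Rps4x was lower by 1.30 in the same comparison (exact adjusted p = 0.0381). Leaving out any library of the 2 groups, other than V617F Ezh2 -/- replicate 1 for Rps4l and Rpl36al, ended each of these calls (adjusted p at most 0.0714), as did the use of females only (at most 0.167).

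Rps4l, an expressed pseudogene named after the X-linked Rps4x, was present at a very low level. It had 4.69, 5.31, 1.21, 3.45 and 3.85 CPM in controls and 7.47, 5.79, 9.05 and 8.89 CPM in Ezh2 -/-, without overlap. Rps4l rose by 1.13 ± 0.34 (edgeR adjusted p = 0.0177) and was lower in V617F Ezh2 -/- than in Ezh2 -/- by 1.08 on the log2 scale (0.0123), with 2.46 to 5.93 CPM there. Both calls were lost without Ezh2 -/- replicate 3 (0.0618 and 0.0661). The parent Rps4x was at -0.03 ± 0.06 (0.763) and 0.07 ± 0.05 (0.319). Some genes that the name rule leaves out were also called lower in V617F Ezh2 -/- against V617F, where 13.6% of all genes were lower. Among them were Fau, which encodes a ribosomal protein fused to a ubiquitin-like protein (-0.20, edgeR adjusted p = 0.0019), and Rpl36al (-0.30, 0.0097).

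Genes that build or serve the ribosome were called as follows where both Ezh2 and V617F were altered. In V617F Ezh2 -/- against V617F, 13.6% of all genes and 162 of the 583 genes of like abundance with the members were lower. Of 62 ribosome biogenesis genes 34 fell and none rose there, with a median of -0.24. Riok2, a kinase of late small subunit maturation (-0.38 ± 0.07, edgeR adjusted p = 0.000227), Sbds, which frees the large subunit for joining and is mutated in Shwachman-Diamond syndrome (-0.24 ± 0.05, 0.0005), and Tsr1, another late small subunit factor (-0.37 ± 0.07, 0.000831), came first. Of 78 mitochondrial ribosomal protein genes 34 fell and none rose (median -0.26), among them Mrps18c (-0.33 ± 0.07, 0.0019). Of 37 small subunits of the respiratory chain 24 fell and none rose (median -0.25), among them Cox6b1 (-0.30 ± 0.07, 0.00229). Of 22 translation factor and other TOP genes 4 fell and 1 rose, Pabpc1 (0.15 ± 0.05, 0.0396). With library totals the 4 lists had 28, 20, 13 and 0 lower genes, and in females only 9, 10, 12 and 0.

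Against Ezh2 -/-, where 22.5% of all genes and 284 of the 583 abundant genes were lower, the V617F Ezh2 -/- libraries had 31 of 62 ribosome biogenesis genes lower and none higher, led by Fbl, the methyltransferase of nucleolar RNA (-0.31 ± 0.07, edgeR adjusted p = 0.00225). In the same comparison 47 of 78 mitochondrial ribosomal protein genes fell, Mrps11 first (-0.41 ± 0.09, 0.00223), and 21 of 37 respiratory chain genes. Of the 22 TOP genes 8 fell and none rose, led by the elongation factor subunit Eef1d (-0.40 ± 0.09, 0.00221) and by Hnrnpa1 (-0.31 ± 0.07, 0.00239). Library totals left 13, 32, 14 and 5 lower genes, and females only 10, 30, 12 and 4. The interaction called 21, 55, 21 and 7 genes of the 4 lists lower and none higher, beside 10.6% of all genes lower, and none of any list in females only. Without V617F, Ezh2 loss raised 9 of 78 mitochondrial ribosomal protein genes, a share like the 11.5% of all genes, such as Mrpl17 (0.35 ± 0.09, 0.00789), a count of 0 in females only, and 1 biogenesis gene, Npm1, the nucleolar histone chaperone (0.34 ± 0.10, 0.0138). V617F alone raised 10 of 78 and 6 of 62 genes of those lists and lowered 0 and 2, beside 9.73% of all genes higher and 13.9% lower. All of these lists share the fit and the libraries of the members, and no test of lists against each other was made.

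**Figure D5:**
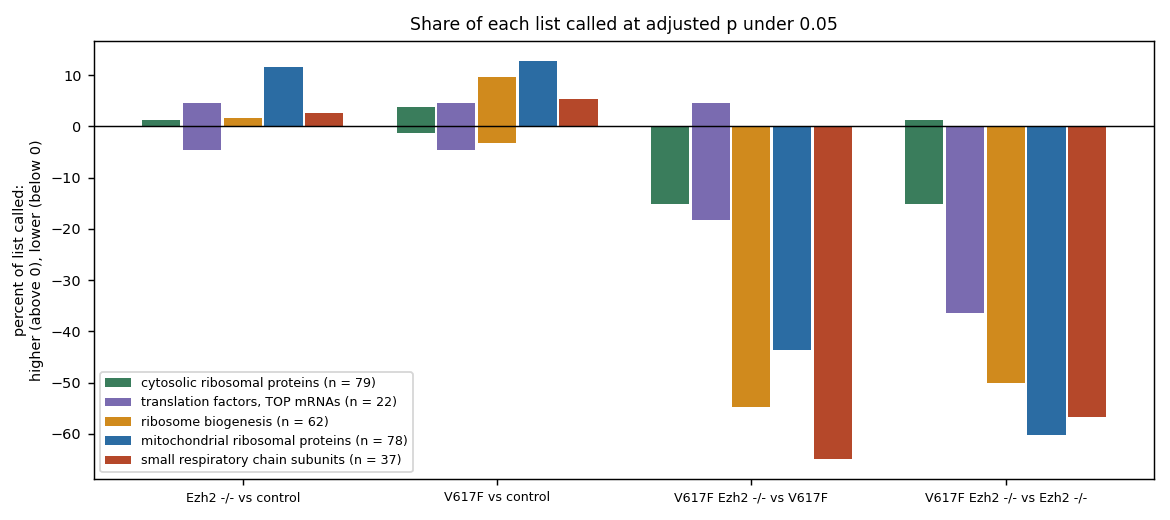
Percent of the tested genes of 5 lists called higher (above 0) or lower (below 0) in 4 comparisons. In V617F Ezh2 -/- against V617F 12 of 79 cytosolic ribosomal protein genes were called lower, a share close to the 13.6% of all genes. Of the 583 other genes of like abundance 162 were lower there. Of ribosome biogenesis genes 34 of 62 were lower, and of mitochondrial ribosomal protein genes 34 of 78.

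Of 19 Diamond-Blackfan anemia genes among the members none was called in Ezh2 -/- or in V617F against control, and 3 were lower in V617F Ezh2 -/- against V617F, namely Rpl27, Rpl35 and Rpl26, where 13.6% of all genes were lower. With V617F, 1 was lower in Ezh2 +/- and 2 in Ezh2 -/- mice, beside 6.51% and 22.5% of all genes. The interaction called 3 lower, beside 10.6% of all genes. Of 16 p53 targets, which respond to ribosomal stress among other signals, 7 rose and 1 fell in Ezh2 -/- against control. Of all genes 11.5% were higher and 12.2% lower there. Phlda3, an inhibitor of Akt, rose by 2.21 ± 0.15 (edgeR adjusted p = 3.54e-11) and Zmat3, an RNA-binding regulator of splicing, by 1.15 ± 0.13 (3.87e-07). Against V617F, V617F Ezh2 -/- also had 7 targets that rose and 1 that fell, beside 13% of all genes higher and 13.6% lower. Phlda3 was at 1.56 ± 0.15 (4.54e-08) and Zmat3 at 0.96 ± 0.13 (1.01e-05). The target that fell in both was Sesn2, an mTORC1 inhibitor (-0.44 ± 0.12, 0.0102, and -0.74 ± 0.12, 5.57e-05). Of the 79 tested members 1 and 12 were called in these comparisons, beside 23.7% and 26.6% of all genes. A link between the targets and the members was not tested.

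Among 22 regulators of ribosomal protein synthesis, which were called about as often as all genes in this comparison, Mycn and Myc were higher with V617F in Ezh2 -/- mice. Mycn had a mean of 3.91 CPM in Ezh2 -/- and 49.8 CPM in V617F Ezh2 -/-, a change of 3.39 ± 0.55 (edgeR adjusted p = 0.000168). Myc rose by 0.51 ± 0.11 (0.00187) in that comparison and by 0.49 ± 0.11 (0.00289) against V617F. Mnt, an antagonist of MYC, fell by 0.33 ± 0.08 (0.00289) in Ezh2 -/- and by 0.46 ± 0.08 (0.00023) in V617F, each against control. Of the 22 regulators, 4 rose and 5 fell against Ezh2 -/-, beside 19.1% of all genes higher and 22.5% lower. Against V617F 2 rose and 2 fell, beside 13% of all genes higher and 13.6% lower. In Ezh2 -/- against control 1 rose and 4 fell, beside 11.5% of all genes higher and 12.2% lower. There the estimates ran from -1.30 to 0.63. In V617F against control 3 rose and 5 fell, beside 9.73% and 13.9%, and the estimates ran from -2.47 to 1.59. The genes named are thus part of calls that went in both directions.

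Markers of other blood cells moved with the same groups. In V617F against control 9 of 14 megakaryocyte and 10 of 12 granulocyte markers rose. There 11 of 12 T and NK cell markers fell, and of 9 monocyte markers 7 fell and 1 rose. Of 8 stem and progenitor markers 2 rose and 1 fell, beside 9.73% of all genes higher and 13.9% lower. In V617F Ezh2 -/- against Ezh2 -/- all 14 megakaryocyte and all 12 granulocyte markers rose, as did 6 of 8 stem and progenitor markers. There 6 of 14 erythroid markers fell, of T and NK cell markers 6 fell and 1 rose, and of monocyte markers 5 fell and 2 rose. Of all genes 19.1% were higher and 22.5% lower. With V617F in Ezh2 +/- mice, where 6 members fell, 7 of 14 megakaryocyte and 8 of 12 granulocyte markers rose. There 11 of 12 T and NK cell, 7 of 9 monocyte and 4 of 14 erythroid markers fell, and 1 monocyte marker rose. Of all genes 9.87% were called (6.51% lower). In Ezh2 -/- against control 5 of 8 stem and progenitor, 6 of 12 T and NK cell and 3 of 14 megakaryocyte markers fell, beside 12.2% of all genes. The megakaryocyte markers summed to 160 to 543 CPM in controls, 131 to 190 in Ezh2 -/-, 348 to 1542 in V617F and 872 to 1346 in V617F Ezh2 -/-. The granulocyte markers summed to 49.4 to 338 CPM, 21.7 to 88.1, 670 to 1190 and 132 to 1349 in the same groups. In V617F Ezh2 -/- against V617F, where the 12 members fell, none of the megakaryocyte or granulocyte markers was called. There 1 of 14 erythroid markers rose and 2 fell, and 6 of 8 B cell markers rose. Of T and NK cell markers 2 rose and 1 fell, and 1 monocyte marker rose. Of all genes 13% were higher and 13.6% lower. The B cell markers summed to 2.85 to 9.56 CPM in V617F and 6.73 to 42.7 CPM in V617F Ezh2 -/-. The part of these cells in the members' changes was not tested.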

How the data were processed

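The submitters deposited counts, 1 whole number per gene for 18834 Entrez genes in 29 libraries. Reads were aligned with STAR to mm9, per the submitters' processing notes; the STAR version, read length, counter, strand setting and annotation stay unnamed (not given in the sources used here). A RefSeq table (GRCm38.p6) named 18772 genes; the other 62 held 0.884 to 2.68% of counts. Promoter coordinates are of GRCm38.p6 only.

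Genes passing filterByExpr (minimum count 10, total 15) in edgeR 4.0.16 under R 4.3.3 were fitted by a robust quasi-likelihood model with TMM scaling, group and sex terms, on all 29 libraries (22 residual degrees of freedom), for 9 comparisons, two-sided. The fit was tested on simulated data. CPM uses TMM-scaled totals, and RPKM the deposited lengths. Totals of 31583023 to 59448945 counts make 3 counts at most 0.095 CPM, counting error only. Alternatives were RLE scaling, library totals, DESeq2 1.42.0, no filter, no sex term, females only, compared groups only, a replicate block, and leaving out libraries; for the other lists they were added after seeing the data. Replicates differed by more than counting noise (lowest chi-square per degree of freedom 4.92).

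Members and lists were chosen with earlier results of these data known. Named genes were the called members, up to 10 per direction by adjusted p, the 3 lowest p values where under 5 were called, reference genes and paralogs, the most and least variable member, and up to 3 called genes per other list and direction. One gene outside the members is not reported here.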

Additional observations from a re-analysis of the deposited data

Results flagged for a closer look

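Of 222 group ranges looked at, 18 held a library far from the others of its group; chance flags about 1 in 20. In the summed level, Ezh2 +/- replicate 1 was low at 64809 CPM and Ezh2 -/- replicate 3 high at 73730 CPM. Ezh2 -/- replicate 3 was also high in Rpl10 (985.8 CPM), Rpl13a (1889.8), Rpl26 (538), Rps2 (1782.5) and Rps21 (476.0), while replicate 4 was low in Rpl10a (418.9). Ezh2 +/- replicate 1 was low in Rpl36a (367.3 CPM), Rpl37 (447.9) and Rpl37a (438). V617F Ezh2 -/- replicate 1 was high in Rpl10a (481.7 CPM) and Rpl36a (458.1), V617F Ezh2 +/- replicate 5 stood apart in Rpl36a (447.3) and replicate 1 in Rplp0 (2453.9). In V617F, replicate 3 stood apart in Rpl37a (449.5 CPM), replicate 4 in Rpl41 (657.2) and replicate 1 in Rps4l (8.84).

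Among the members and the paralogs followed here, the change on Ezh2 loss differed by V617F status for 9 genes in edgeR's test of that difference. Of all tested genes 19.1% were called in that test, and 6 of the 79 tested members. None of these 6 was called in females only, and the count was 0 without control replicate 1 or Ezh2 -/- replicate 3. The log2 change with V617F minus that without it was -0.61 for Rps27l, -0.29 for Rpl7a, -0.27 for Rpl27, -0.28 for Rpl41, -0.23 for Rpl11 and -0.21 for Rpl18. Outside the members it was -0.36 for Rpl7l1, -0.42 for Rpl36al and -1.68 for the pseudogene Rps4l.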

How the results depend on the processing

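No called direction of a named gene or ratio reversed. Both comparisons of Ezh2 +/- with Ezh2 +/+ and their interaction called 0 members in every setting. The counts of called members (1 in Ezh2 -/- against control, 4 in V617F against control, 6, 12 and 13 in V617F Ezh2 +/- against Ezh2 +/-, V617F Ezh2 -/- against V617F and V617F Ezh2 -/- against Ezh2 -/-, and 6 for the Ezh2 -/- interaction) depended on the setting. In Ezh2 -/- against control there were 3 with library totals, 2 with DESeq2, 0 in females only and 0 without the 3 libraries that stood apart. V617F against control gave 2 without the sex term, 0 in females only, 0 with the compared groups alone and 9 with DESeq2. V617F Ezh2 +/- against Ezh2 +/- gave 2 with RLE scaling, 11 with library totals, 2 without the filter and 3 without the sex term. It gave 0 in females only, with the compared groups alone and without the 3 libraries. Without the 3 libraries only males are left in Ezh2 +/-, against females with V617F, so that setting cannot tell V617F from sex within these groups. V617F Ezh2 -/- against V617F gave 2 with library totals, 7 without the filter, 4 without the sex term, 4 in females only, 2 with the compared groups alone and 6 without the 3 libraries. Against Ezh2 -/- it gave 8 with RLE, 6 without the filter and 7 in females only, and the members' median, -0.04 in the fit with TMM, was 0.044 with library totals. The interaction gave 3 with library totals (median -0.00061, all genes shifted to 0.117), 0 in females only and 3 without the 3 libraries. Leaving out each library gave 0 to 2, 0 to 6, 1 to 8, 2 to 23, 1 to 22 and 0 to 8 calls, in the order given first. The causes were not tested. Females only leaves 23 of the 29 libraries, and the compared groups alone leave fewer. Calls over all genes in each setting are not given here. These counts thus cannot tell whether the members depend on the setting more than other genes do.

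Of 62 pairs of libraries with the same replicate number, 22 had deviations correlated above 0.1. The median was -0.005, the lowest -0.489 and the highest 0.795, between replicates 5 of control and Ezh2 +/-. Pairs with different numbers were not looked at for reference, so whether the numbers pair some samples or mark a batch cannot be told. With the replicate number as a block the interaction gave 3 calls, and the other counts stayed within 1.5 times.

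In females only the called log2 ratios were no longer called: Rps27l to Rps27 at 0.36 (Ezh2 -/- against control) and -0.37 (V617F Ezh2 -/- against Ezh2 -/-), Rps4l to Rps4x at -1.23, Rpl22l1 to Rpl22 at 0.23 and Rpl36al to Rpl36a at -0.27. Leaving out each library, these ranged from 0.34 to 0.48, -0.50 to -0.35, -1.43 to -1.22, 0.18 to 0.26 and -0.32 to -0.26. Without V617F replicate 1, 5 others were called: Rps27l to Rps27 in V617F Ezh2 -/- against V617F (range -0.41 to -0.24) and V617F against control (0.23 to 0.40), Rpl22l1 to Rpl22 in V617F against control (0.12 to 0.22), and Rpl7l1 to Rpl7 (-0.18 to -0.10) and Rpl36al to Rpl36a (-0.26 to -0.11) in V617F Ezh2 -/- against V617F. Fewer libraries raise the smallest p that these exact tests can give.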
